A study of Mus musculus with 18 samples.

Results

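The genes described here are 10 members of the TGF-beta pathway among the 54547 gene identifiers counted in every library. They are the ligand genes Tgfb1, Tgfb2 and Tgfb3, the ligand anchor gene Nrros, the receptor genes Tgfbr1 and Tgfbr2, and the Smad genes Smad2, Smad3, Smad4 and Smad7. The set was drawn up because Tgfbr1 was lower in the PLX5622 libraries of these same data, and the other 9 genes were named for their place in the pathway. The contrast between the diets in Tgfbr1 is therefore given as a description with no test, while the other genes were tested. All 10 identifiers were found, and 9 of the genes had enough counts for the test across all genes.

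The libraries came from homogenised medial prefrontal cortex of C57BL6/J mice at postnatal day 100, with 9 animals fed chow containing PLX5622 at 1200 mg/kg and 9 fed a control diet. PLX5622 inhibits CSF1R, the receptor kinase on which microglia depend for survival, and is used to deplete these cells. The diet is given for 21 days ahead of 44 days in which 15% ethanol was offered every other day, and tissue was collected 24 hours after ethanol was last available. Whether PLX5622 was continued through the drinking is not stated. A single treatment text stands on all 18 samples and names PLX5622 on the controls too, so the diet was taken from the sample titles and chow labels. Both diets thus carry the same ethanol description, and no ethanol-free group was compared. The depletion is incomplete, since microglial transcripts were still counted in all 9 PLX5622 libraries, and PLX5622 acts on every cell that depends on CSF1R, macrophages at the borders of the brain included.

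TGF-beta ligands are secreted in a latent form and must be released before they act. Nrros, a transmembrane protein of microglia and other myeloid cells, tethers the latent form of the Tgfb1 product to the cell surface, where integrins free it. The active ligand binds the type II receptor kinase Tgfbr2, which activates the type I receptor kinase Tgfbr1. Tgfbr1 phosphorylates Smad2 and Smad3, which enter the nucleus with Smad4, and Smad7 acts as a feedback inhibitor at the receptor. In the mouse brain the pathway is known for keeping microglia in their homeostatic state, while Tgfbr1, Tgfbr2 and the Smads are also expressed by neurons, other glia and vessel cells.

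Each library held between 990136 and 1742680 counts (median 1384979). Levels are given as CPM, counts scaled to the size of each library after TMM, so that 1 CPM corresponds to 1 to 2 counts. Of the 24 genes on a list of microglial markers, 16 could be tested. All 16 were lower with PLX5622 at an edgeR adjusted p under 0.05, against 0.353% of all genes tested. Their median was 29.3% of the control level. The summed CPM of this list lay between 157 and 286 in the PLX5622 libraries and between 571 and 837 in the control libraries. Itgam, Irf8 and Trem2 were at 0 throughout. Another annotated gene on the same strand covers 99.9% of the Itgam span and 100% of the Irf8 span. How reads in shared spans were counted is not given, so their 0 counts cannot be read as absent expression. Markers of border macrophages summed to 2.69 to 11.2 CPM with PLX5622 and 23.3 to 35.7 CPM in controls, and Siglec1 was at 0. Neuron markers summed to 8312 to 8910 CPM with PLX5622 and 8148 to 8913 CPM in controls. Astrocyte markers summed to 3789 to 4308 CPM with PLX5622 and 3756 to 4156 CPM in controls, and endothelial markers to 712 to 868 CPM with PLX5622 and 735 to 958 CPM in controls, so that the diets overlapped for each. Choroid plexus markers, on 246 counts with PLX5622 and 109 in controls, summed to 8.73 to 42.4 CPM with a median of 16.9 CPM with PLX5622, and to 3.76 to 14.1 CPM with a median of 8.08 CPM in controls. The diets overlapped, the 1 gene of the 8 that could be tested had a log2 fold change of 1.49 and did not pass, and the part of this tissue in the levels below was not tested. Blood myeloid markers summed to 5.37 to 32.8 CPM with a median of 26.7 CPM with PLX5622. In controls they summed to 4.60 to 198 CPM with a median of 7.935 CPM. The highest control value was that of control 3, and the next was 20.1 CPM in control 9. The diets overlapped, and the difference in medians was not tested. In a whole-tissue library, fewer cells of a type and less RNA per cell cannot be told apart.

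Relative to control, the lowest levels among the pathway genes were those of Tgfb1, Nrros and Tgfbr1. Tgfbr1 stood at 57.3% of its control level with no overlap between the diets, Nrros at 56.5% and Tgfb1 at 37.8%, both with overlap, and Tgfbr2 at 82.2%. The ligand genes Tgfb2 and Tgfb3 and the Smad genes lay between 90.4% and 108% of control. Of the 8 tested genes other than Tgfbr1, 0 passed an adjusted p of 0.05 in edgeR's quasi-likelihood test in either direction, against 0.353% of all 11051 genes lower and 0.0452% higher. At an unadjusted p under 0.05 there were 2, Nrros and Tgfbr2, both lower, against 6.79% of all genes in either direction and 3.22% lower. DESeq2, which called 0.358% of its genes lower, and limma-voom each called 0 of the 8. The median log2 fold change over all genes tested was 0.00.

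**Figure D1:**
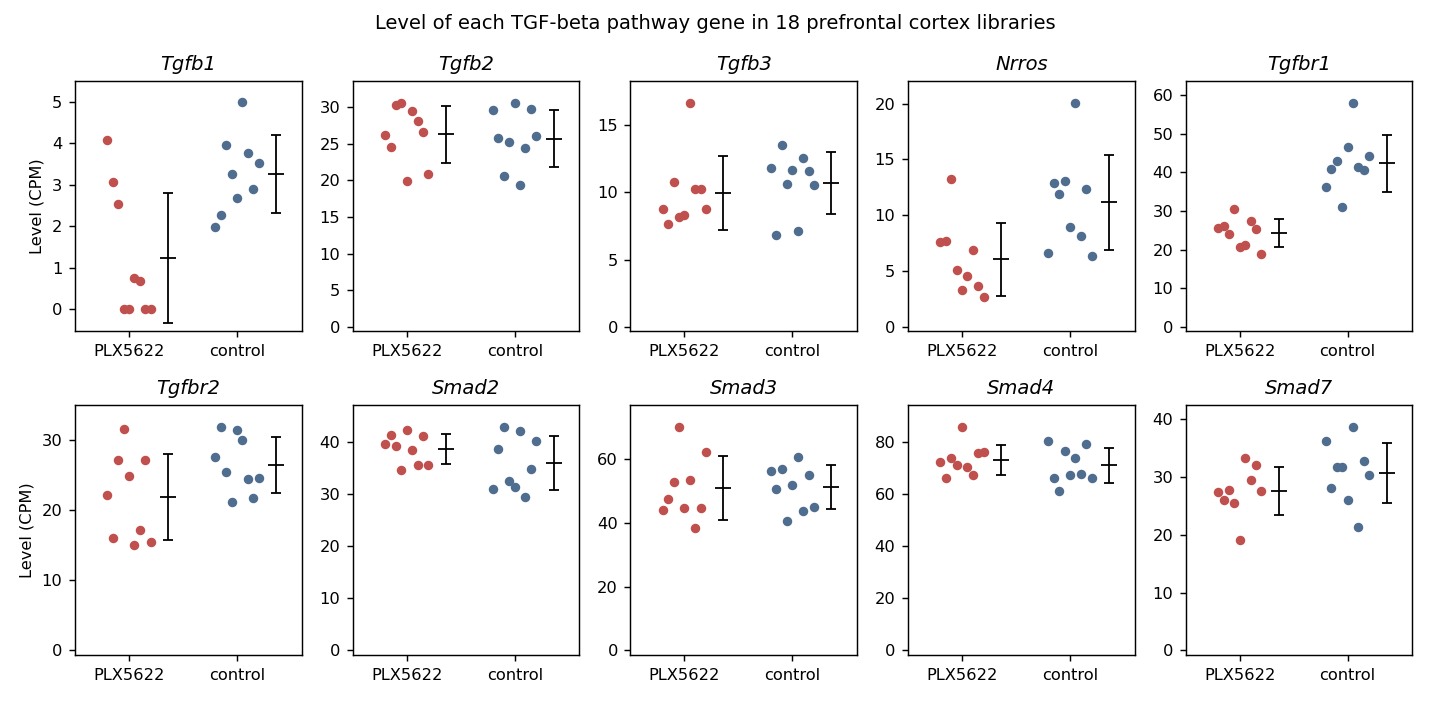
Level of each pathway gene in CPM on the vertical axes, with 1 point per library, 9 PLX5622 libraries left of 9 control libraries, and lines for the mean with the SD on either side. The Tgfbr1 points of the 2 diets do not overlap, 4 PLX5622 libraries stand at 0 for Tgfb1, and the Smad genes cover much the same range in both diets.

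Tgfb1 encodes the ligand that Nrros holds on microglia and the main TGF-beta isoform of immune cells. Its gene lies on chromosome 7 from 25687002 to 25705077 on the plus strand (GRCm38, GENCODE M21, as for all positions here). It was read at very low depth, with 17 counts over the 9 PLX5622 libraries and 40 over the 9 control libraries. Single PLX5622 libraries ran from 0 to 4.07 CPM with a median of 0.685 CPM, and control libraries from 1.97 to 5.00 CPM with a median of 3.26 CPM. Although the diets overlapped, 6 PLX5622 libraries lay below the lowest control, 4 of them at 0 counts. A count of 0 allows up to 3 counts, which in these 4 libraries is 1.81 to 3.05 CPM, inside the control range for 3 of them (counting error only).

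The mean of Tgfb1 was 1.23 ± 1.57 CPM with PLX5622 and 3.26 ± 0.93 CPM in controls (SD, n = 9 each). The difference of -2.03 CPM had an unadjusted p of 0.00551 in an exact two-sided permutation test over all assignments of libraries to diets. Tgfb1 was the 1 gene of the set so tested. Across all genes it did not pass: DESeq2 gave -1.32 (log2, SE 0.51, adjusted p = 0.678), and edgeR with no count filter gave -1.24 (SE 0.42, adjusted p = 0.277). Of the 17 counts, 15 came from PLX5622 25, 26 and 27, and the other 6 libraries held 2. Marker sums of border macrophages were 5.82, 4.60 and 3.16 CPM and those of blood myeloid cells 8.73, 32.2 and 32.8 CPM in these 3 libraries. The 32.8 CPM of PLX5622 27 is the highest blood myeloid sum of its diet, the other 5 values lie inside its ranges, and the part of such cells in the Tgfb1 counts was not tested.

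Tgfb2 and Tgfb3 encode the ligands of the family that neurons and astrocytes also make. Tgfb2 (chromosome 1, 186622792 to 186705989, minus strand) ran from 19.9 to 30.5 CPM with a median of 26.6 CPM in PLX5622 libraries, and from 19.3 to 30.5 CPM with a median of 25.8 CPM in control libraries. The ranges nearly coincide. Its log2 fold change of 0.03 (SE 0.12, edgeR adjusted p = 0.991) has a 95% interval of 87.1% to 120% of control.

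Tgfb3 (chromosome 12, 86056745 to 86079041, minus strand) ran from 7.67 to 16.6 CPM with a median of 8.73 CPM with PLX5622, and from 6.83 to 13.5 CPM with a median of 11.6 CPM in controls. All but 1 of the PLX5622 libraries were at or below 10.7 CPM, and PLX5622 31 stood at 16.6 CPM. The log2 fold change was -0.10 (SE 0.18, edgeR adjusted p = 0.971, 72.8% to 119% of control), and -0.22 without that library. Genes on the other strand, Ttll5 among them, overlap 27.6% of the Tgfb3 span, and since the strand setting of the counting is not given in the sources used here, reads of these genes may be mixed with those of Tgfb3.

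Nrros (chromosome 16, 32142785 to 32165594, minus strand) is the member whose expression is most tied to microglia and other macrophages. It had 79 counts over the PLX5622 libraries and 135 over the control libraries. Levels ran from 2.69 to 13.3 CPM with a median of 5.09 CPM with PLX5622, and from 6.33 to 20.02 CPM with a median of 11.9 CPM in controls. In 8 of 9 PLX5622 libraries Nrros lay below the control mean, and in 5 below the lowest control. The exception was PLX5622 27 at 13.3 CPM, above 8 of the 9 control libraries.

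The mean of Nrros was 6.07 ± 3.26 CPM with PLX5622 and 11.1 ± 4.26 CPM in controls (SD, n = 9 each). The log2 fold change of -0.82 (SE 0.24) had an unadjusted p of 0.0012 and did not pass across all genes (edgeR adjusted p = 0.167). Its 95% interval covers 40.7% to 78.2% of control. Without PLX5622 27 the log2 fold change was -1.07 and passed (edgeR adjusted p = 0.00709), as it did at -0.82 with no count filter (adjusted p = 0.0272), a setting that called 0.379% of its genes lower. Over all libraries left out in turn the adjusted p ran from 0.00709 to 0.356, and over the other settings from 0.0272 to 0.414.

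Tgfbr1, the type I receptor kinase that phosphorylates Smad2 and Smad3, was the gene that chose the set (ENSMUSG00000007613.15, chromosome 4, 47353222 to 47414931, plus strand). It had 309 counts with PLX5622 and 519 in controls. Levels ran from 18.8 to 30.5 CPM with a median of 25.4 CPM in PLX5622 libraries, and from 31.0 to 57.9 CPM with a median of 41.4 CPM in control libraries. The highest PLX5622 library, PLX5622 28, and the lowest control library, control 5, were 30.5 and 31.0 CPM, so the groups lie edge to edge. Over all genes tested, 0.199% had every PLX5622 library below the lowest control, a share from which nothing is read for Tgfbr1 because the set was chosen on this contrast.

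The mean of Tgfbr1 was 24.4 ± 3.65 CPM with PLX5622 and 42.4 ± 7.41 CPM in controls (SD, n = 9 each), a log2 fold change of -0.80 (SE 0.11). This leaves 57.3% of the control level, where P2ry12, a purinergic receptor of microglia, was left at 22.2% and Csf1r at 29.4%. All tested genes of the microglial marker list ran from 9.28% to 49.1% of control. The fold change stayed between -0.85 and -0.73 with any 1 library left out, and between -0.80 and -0.77 over the 7 other settings in which the gene was tested. These ranges and the SE describe the contrast that chose the gene and add no support for it.

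Tgfbr2, the type II receptor that binds the ligand first (chromosome 9, 116084293 to 116175360, minus strand), ran from 15.1 to 31.5 CPM with a median of 22.1 CPM in PLX5622 libraries. Control libraries ran from 21.2 to 31.9 CPM with a median of 25.4 CPM. The PLX5622 libraries were uneven: PLX5622 26, 31, 32 and 35 lay at 15.1 to 17.1 CPM, below every control, and the other 5 at 22.1 to 31.5 CPM, within the control range. The mean was 21.9 ± 6.14 CPM with PLX5622 and 26.5 ± 3.97 CPM in controls (SD, n = 9 each). The log2 fold change of -0.28 (SE 0.13, unadjusted p = 0.0343) did not pass across all genes (edgeR adjusted p = 0.684), and its interval runs from 68.7% to 98.2% of control.

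Both receptor genes were counted in the same libraries, so their balance can be given per animal. Tgfbr1 made up 53.3% ± 6.25 of the summed counts of the pair with PLX5622 (range 45.5% to 61.8%) and 61.4% ± 3.56 in controls (range 56.2% to 65.9%; SD, n = 9 each). The ranges overlap, and because this share contains the Tgfbr1 contrast it carries no test.

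**Figure D2:**
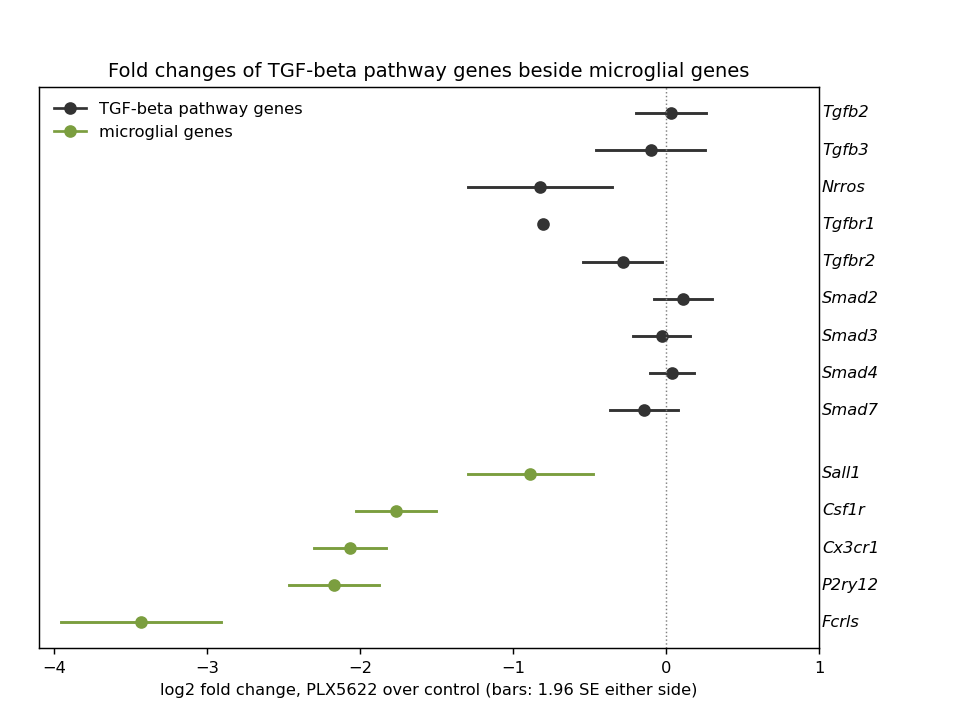
Log2 fold change of PLX5622 over control on the horizontal axis for the 9 tested pathway genes (dark) and 5 microglial genes (green), with bars for the 95% interval except for Tgfbr1, on which the set was chosen. Nrros at -0.82 and Tgfbr1 at -0.80 lie beside Sall1 at -0.89, while Csf1r, Cx3cr1, P2ry12 and Fcrls lie at -1.77 or below and the Smad genes sit around 0. The tested genes of the microglial marker list, not all shown, ran from -3.43 to -1.03.

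Smad2, Smad3 and Smad4 were the most deeply counted genes of the set. Smad2, one of the pair that Tgfbr1 phosphorylates, ran from 34.6 to 42.4 CPM with a median of 39.1 CPM with PLX5622, and from 29.5 to 42.8 CPM with a median of 34.9 CPM in controls, a log2 fold change of 0.11 (SE 0.10, edgeR adjusted p = 0.907). Smad3, its partner (chromosome 9, 63646767 to 63757994, minus strand), ran from 38.3 to 70.2 CPM with a median of 47.5 CPM with PLX5622, and from 40.7 to 60.8 CPM with a median of 52.0 CPM in controls, a log2 fold change of -0.03 (SE 0.10, adjusted p = 0.989). Neither gene separated the diets, and the intervals were 94.6% to 123% of control for Smad2 and 86.2% to 112% for Smad3.

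Smad4, the partner shared by all receptor-regulated Smads, ran from 65.9 to 85.6 CPM with a median of 72.1 CPM with PLX5622, and from 61.1 to 80.2 CPM with a median of 67.7 CPM in controls. Its log2 fold change of 0.04 (SE 0.07, edgeR adjusted p = 0.971) has the narrowest interval of the set, 93.0% to 114% of control. Smad7, the inhibitor that TGF-beta itself induces, ran from 19.1 to 33.2 CPM with a median of 27.5 CPM with PLX5622, and from 21.3 to 38.6 CPM with a median of 31.7 CPM in controls. Its log2 fold change was -0.15 (SE 0.11, edgeR adjusted p = 0.889, 77.4% to 105% of control). The intervals of the 4 Smad genes are for whole tissue, where other cells also express them, and a change within microglia alone was not tested.

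Whether the receptor and anchor genes followed the microglial level from animal to animal was examined within each diet, since the diets themselves form separate clusters. The microglial level was the mean log2 CPM of the 16 tested marker genes. It was 3.39 ± 0.25 with PLX5622 (range 3.01 to 3.73) and 5.04 ± 0.11 in controls (range 4.89 to 5.29; SD, n = 9 each). Across 9 tested genes and both diets, 18 relations were computed, and 0 passed an exact two-sided permutation test over 362880 orders (lowest adjusted p = 0.821).

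Within PLX5622 libraries, Pearson's r of Tgfbr1 with the microglial level was 0.488 (exact permutation p = 0.183, adjusted 0.821; Spearman's rho 0.383, exact p = 0.312), and 0.178 without the 2 libraries farthest from the median microglial level. Within controls it was -0.07 (exact permutation p = 0.818; rho -0.30, exact p = 0.437), and 0.0447 without the 2 farthest. Tgfbr2 gave 0.450 within PLX5622 (exact permutation p = 0.228; rho 0.60, exact p = 0.0968) and 0.877 without the 2 farthest, PLX5622 27 among them. Within controls it gave 0.457 (exact permutation p = 0.224; rho 0.317, exact p = 0.410) and -0.03 without the 2 farthest. With 9 animals and few counts per library, these values leave a wide range of relations undetectable.

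Nrros gave -0.28 within PLX5622 (exact permutation p = 0.462; rho -0.17, exact p = 0.678) and 0.459 within controls (exact permutation p = 0.210; rho 0.65, exact p = 0.0666). Without the 2 farthest libraries these were -0.52 and 0.361. PLX5622 27 had the highest Nrros level of its diet with 21 counts, and with 3.02 a microglial level next to the lowest, 3.01 in PLX5622 35. PLX5622 35 had the lowest Nrros level, 2.69 CPM on 4 counts. The remaining 6 tested genes gave r between -0.67 and 0.253, the lowest for Tgfb3 within controls (exact permutation p = 0.0498, adjusted 0.821). Without the 2 farthest libraries these 6 genes gave r between -0.59 and 0.847, the highest for Smad4 and, at 0.760, Smad7 within controls, where all 9 libraries gave 0.120 and 0.0921.

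**Figure D3:**
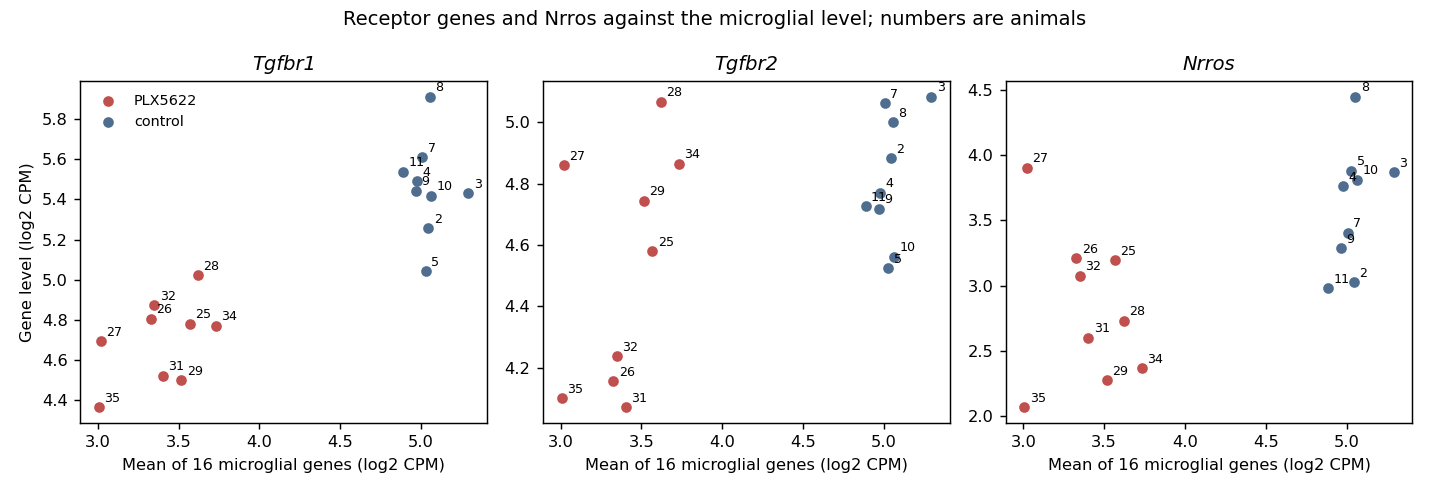
Level of Tgfbr1, Tgfbr2 and Nrros (vertical axes, log2 CPM) against the mean log2 CPM of 16 microglial genes (horizontal axes), 1 point per library, PLX5622 in red and controls in blue, with animal numbers. The diets form separate clusters, 3.01 to 3.73 and 4.89 to 5.29 on the horizontal axes, and PLX5622 27 stands high for Nrros at 3.02.

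The genes whose pattern over the 18 libraries was most like that of Tgfbr1 were sought among the 10989 tested genes averaging 10 counts or more per library, by the mean absolute difference in standardised log2 CPM. The nearest were Cx3cr1 at 0.341 SD, the fractalkine receptor of microglia, Fcrls at 0.361 SD, P2ry12 at 0.364 SD, the complement gene C1qb at 0.398 SD, the zinc finger gene Zfp292 at 0.398 SD and Csf1r at 0.408 SD. Of these 6, Cx3cr1, Fcrls, P2ry12, C1qb and Csf1r stand on the microglial marker list. Zfp292 does not, and its difference was small, 113.9 ± 3.27 CPM with PLX5622 and 129.6 ± 10.8 CPM in controls (SD, n = 9 each; log2 fold change -0.19, SE 0.06, edgeR adjusted p = 0.254). Among the pathway genes Nrros ranked 46 in likeness to Tgfbr1 and Tgfbr2 ranked 296, while the others ranked from 1274 for Smad7 to 10058 for Smad4. This ordering is a description, since the difference between the diets in Tgfbr1 makes up most of the pattern compared.

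The wider pathway was described with 7 lists of genes outside the microglial ones, holding 116 genes of which 85 could be tested. Of these 85 genes, 0 passed in edgeR's test, and likewise 0 in limma-voom and 0 in DESeq2. Over all genes tested, edgeR called 0.353% lower and 0.0452% higher. At such shares, 0 calls do not set these genes, or the single lists below, apart from all genes. An unadjusted edgeR p under 0.05 was found for 8, which is 9.41% against 6.79% of all genes tested. Log2 fold changes ran from -0.47 to 0.34 with a median of 0.01, negative in 37 genes and positive in 48.

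Of the genes that hold or release latent ligand, 13 of 20 were tested and 0 passed, with a median log2 fold change of -0.0011. Itgb5, an integrin beta chain that pairs with Itgav to bind the latent ligand, had the smallest p of the list. It ran from 17.1 to 31.4 CPM with a median of 18.9 CPM with PLX5622, and from 23.7 to 36.8 CPM with a median of 27.7 CPM in controls. In 8 of 9 PLX5622 libraries Itgb5 lay below the lowest control, PLX5622 34 being the exception. Its log2 fold change of -0.47 (SE 0.13) did not pass (edgeR adjusted p = 0.0793), but passed without PLX5622 34 (-0.59, adjusted p = 0.00463) and without control 2 (-0.51, adjusted p = 0.0495). Ltbp3, which carries latent ligand in the matrix, was at 0.34 (SE 0.15, adjusted p = 0.650). Itgav was at -0.03, Itgb8, the chain that activates latent ligand held by Nrros, at 0.05, and the protease gene Furin at -0.0011. Lrrc32, the relative of Nrros that anchors ligand on other cells, had 49 counts with PLX5622 and 34 in controls and was not tested.

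Of the co-receptors and other receptors of the family, 10 of 13 were tested and 0 passed, with a median of 0.02. Acvrl1, a type I receptor of vessels, was at -0.37 (SE 0.24, edgeR adjusted p = 0.833), and Tgfbr3, the co-receptor betaglycan, at -0.18 (SE 0.12, adjusted p = 0.852). The endothelial co-receptor Eng was at 0.22 and the activin receptor Acvr1b at 0.01. Among the Smads outside the set, 3 of 4 were tested and 0 passed, with Smad5 at 0.19 (SE 0.14, adjusted p = 0.881) and Smad1 at 0.05 (SE 0.08, adjusted p = 0.971), both of the branch that carries BMP signals.

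Of the partners and regulators of Smads, 19 of 22 were tested and 0 passed, with a median of 0.00. Pmepa1, a TGF-beta-induced gene whose product restrains Smad2 and Smad3, was at -0.16 (SE 0.07, edgeR adjusted p = 0.632), and the Smad repressor Ski at 0.13 (SE 0.06, adjusted p = 0.641). All 15 genes of the kinase branch that bypasses Smads were tested and 0 passed, with a median of 0.02, Mapk8 at 0.12 (SE 0.06, adjusted p = 0.721) and Tab2 at 0.10 (SE 0.09, adjusted p = 0.910). Of 22 other ligands of the superfamily and their antagonists, 12 were tested and 0 passed, with Fstl4 at -0.12 (SE 0.06, adjusted p = 0.726) and Gdf11 at -0.27 (SE 0.16, adjusted p = 0.809).

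Transcripts that TGF-beta induces in many cell types gave 13 tested genes of 20 and 0 that passed, with a median of 0.02. Klf10, an early TGF-beta-induced transcription factor, ran from 28.5 to 49.0 CPM with a median of 36.8 CPM with PLX5622, and from 22.4 to 52.3 CPM with a median of 30.9 CPM in controls. Its log2 fold change was 0.30 (SE 0.12, edgeR adjusted p = 0.529). The collagen gene Col1a2 was at -0.27 (SE 0.14, adjusted p = 0.772).

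The last list held microglial genes known from mice to need TGF-beta. Of its 20 genes 17 were tested. At an edgeR adjusted p under 0.05, 10 were lower and 0 higher, against 0.353% of all genes tested lower and 0.0452% higher. The log2 fold change was negative in 15 genes and positive in 2, with a median of -1.03. Among the 10 were Fcrls at -3.43, P2ry12 at -2.17, Tmem119 at -2.14, Cx3cr1 at -2.06, Siglech at -1.87, C1qa at -1.81, Csf1r at -1.77, Olfml3 at -1.49 and Sall1 at -0.89. Of the 10, 9 also stand on the list of microglial markers, whose 16 tested genes all fell, so this list cannot separate fewer microglia from microglia with less of these transcripts. Not on the marker list is Sall1, a transcription factor that sets microglial identity. For this gene too, fewer cells and less RNA per cell cannot be told apart. Its level was 5.34 ± 1.63 CPM with PLX5622 and 10.3 ± 2.22 CPM in controls (SD, n = 9 each). Sall1 stood at 54.1% of control (log2 fold change -0.89, SE 0.21, edgeR adjusted p = 0.0177), and did not pass in DESeq2 (adjusted p = 0.0678) or in every set with 1 library left out (adjusted p up to 0.0633).

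Of that list, 7 tested genes did not pass, and those named here are also expressed by other brain cells. Adgrg1, an adhesion receptor, was at -0.24 (SE 0.10, edgeR adjusted p = 0.592), and Mertk, a receptor for dying cells, at -0.19 (SE 0.08, adjusted p = 0.604). The Mertk ligands Pros1 and Gas6 were at -0.32 and 0.19, and the transcription factor gene Mef2a at -0.04. Jun was at 0.39 (SE 0.17, adjusted p = 0.626), and at 0.50 without PLX5622 35, where it passed (adjusted p = 0.0366). Gpr34, P2ry13 and Slc2a5 were below the count filter, with 26, 26 and 18 counts with PLX5622 and 122, 101 and 75 in controls. DESeq2 gave -2.29, -2.02 and -2.09 for them (highest adjusted p = 0.00116). Genes on the other strand overlap 100% of the spans of Gpr34, P2ry13 and P2ry12 and 37.9% of that of Cx3cr1. The limit given for Tgfb3 from the unknown strand setting holds for these genes too.

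**Figure D4:**
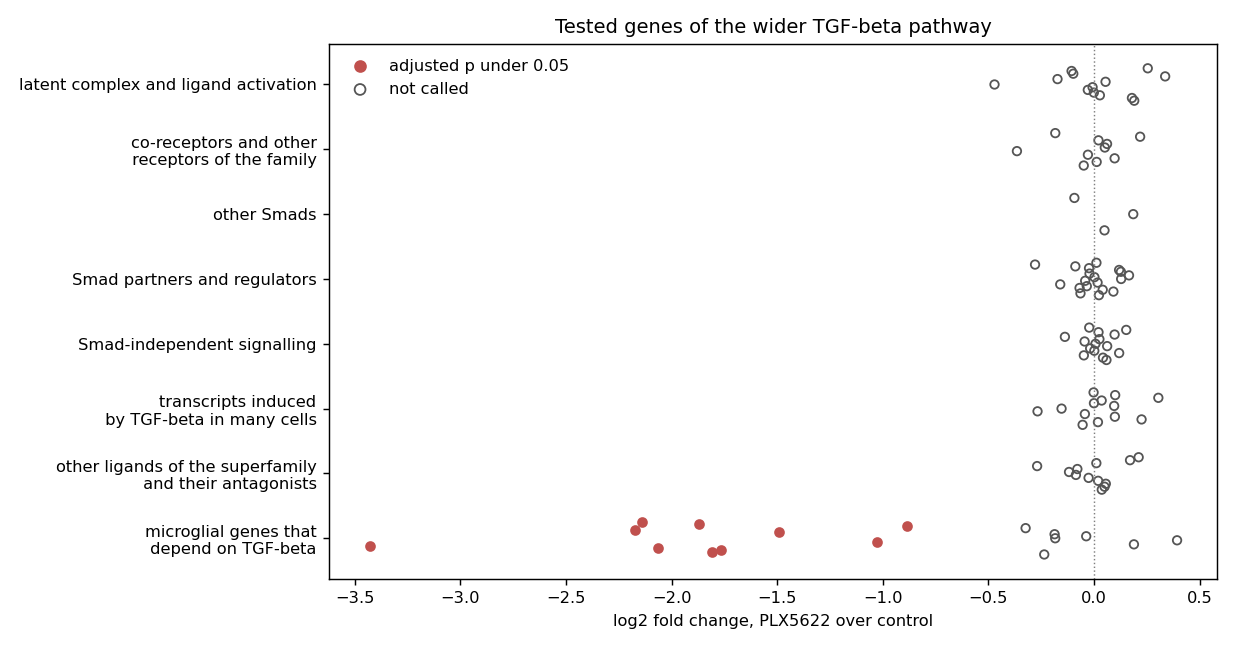
Log2 fold change of PLX5622 over control (horizontal axis) for every tested gene of 8 wider pathway lists (vertical axis), 1 point per gene, filled where the adjusted p is under 0.05. The 10 filled points belong to the microglial genes that depend on TGF-beta, and the genes of the other 7 lists lie between -0.47 and 0.34.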

How the data were processed

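The files hold whole-number read counts per gene, as deposited by the authors, with 1 table per library and 54547 Ensembl identifiers. Per the labels' protocols, libraries were made from total RNA of homogenised tissue, and per the series' design text reads are biased to the 3' end of transcripts. Tools listed in the submitters' processing notes are Bowtie2 (2.3.4.3), HTSeq (0.11.0) and FastQC (0.11.8), besides R (3.5.1) with DESeq2 (1.10.1); the notes list GRCm38.p6 and mm10 as builds. What each tool did, the strand setting and the counted feature: not given in the sources used here. Identifiers were matched to GENCODE M21 without version; the 841 unmatched hold 0.0278% of counts.

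Genes were tested with edgeR 4.0.16 in R 4.3.3 on the counts, all 18 libraries and diet as the term (filterByExpr at a minimum count of 10 and a minimum total of 15, TMM, robust quasi-likelihood fit, Benjamini-Hochberg adjustment over 11051 genes, threshold 0.05). CPM divide each count by the library's total times its TMM factor, and log2 CPM were formed with 2 as prior count. Intervals are 95% normal intervals around the log2 fold change. Tgfb1, under the filter, was tested on CPM by exact permutation. The fit was tested on simulated counts. Alternatives were DESeq2 1.42.0, limma-voom (limma 3.58.1), other scalings and count filters, a covariate for the order of animal numbers, and leaving out libraries. No pair of libraries of the same diet agreed within sampling noise (lowest chi-square per degree of freedom 1.13). Pairs across the diets were not compared.

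Diets come from the titles and chow labels. The titles number animals separately, but nothing is stated on cages or litters. The p-values take the libraries as independent animals, which could not be checked. The pathway genes, the lists and the tests were chosen with earlier results of these data known. Named genes are all 10 members, every called gene and the 2 smallest p of each wider list, the 6 genes most like Tgfbr1, and Csf1r and P2ry12, except that some genes are not reported here. The other genes of the wider lists named in the text were chosen after their values were seen.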

Additional observations from a re-analysis of the deposited data

Results flagged for a closer look

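In 4 of 20 groups of 9 libraries (10 genes in 2 diets), 1 library stood apart from the rest by more than Dixon's critical value, which is set on the gap to the nearest library divided by the whole range. Dixon's test is set so that chance flags about 1 in 20 groups of normally distributed values, and its rate for counts as low as these was not tested. Tgfb3 was 16.6 CPM in PLX5622 31, where the next PLX5622 library had 10.7 CPM (gap over range 0.658). Nrros was 13.3 CPM in PLX5622 27, where the next PLX5622 library had 7.67 CPM (0.529), and 20.02 CPM in control 8, where the next control had 13.04 CPM (0.510). Smad4 was 85.6 CPM in PLX5622 29, where the next PLX5622 library had 75.9 CPM (0.495).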

How the results depend on the processing

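Among all genes, 39 were lower, against 65 in DESeq2, 92 with no count filter, 8 at a mean of at least 50 counts and 38 to 50 with 1 library left out. There were 5 higher, against 14 in limma-voom, 20 with no filter, 0 at a mean of at least 50 counts, 17 with the order of the animal numbers within a diet in the fit, 8 without control 8 and PLX5622 28, and 2 to 13 with 1 library left out. Pathway genes other than Tgfbr1 called lower numbered 0, against 1 with no filter and 0 to 1 with 1 library left out, Nrros in each case. None was called higher in any setting. At a mean of at least 50 counts, which leaves Smad2, Smad3 and Smad4, Tgfbr1 was not tested. The log2 fold change of Tgfb2 turned to -0.034 without control 8 and PLX5622 28. With 1 library left out it ran from -0.014 to 0.070 for Tgfb2, -0.081 to 0.017 for Smad3 and -0.017 to 0.081 for Smad1, and r of Nrros with the microglial level within PLX5622 ran from -0.80 to 0.18. The cause was not tested. The Tgfb1 difference ran from -2.38 to -1.81 CPM with 1 library left out and was -1.66 CPM without control 8 and PLX5622 28. No paired analysis was possible because the animal numbers in the titles do not overlap between the diets. Depth limits Tgfb1, Nrros and Tgfb3, which averaged 3.17, 11.9 and 14.3 counts per library.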

Other observations

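Ccn1 and Tgfbi, both induced by TGF-beta in many cells, were too thinly counted for the test and are given here because of their values. Ccn1, a matricellular protein gene, had 134 counts with PLX5622 and 66 in controls, at 4.60 to 18.7 CPM with a median of 8.06 CPM with PLX5622 and 1.59 to 9.85 CPM with a median of 5.81 CPM in controls. The diets overlapped. It passed in edgeR with no count filter (log2 fold change 0.96, SE 0.22, adjusted p = 0.00631) and did not in DESeq2 (0.96, SE 0.31, adjusted p = 0.305). Tgfbi, an extracellular matrix gene also expressed by macrophages, had 26 counts with PLX5622 and 51 in controls. Its level lay below the lowest control in 8 of 9 PLX5622 libraries. It did not pass in edgeR with no count filter (-0.99, SE 0.35, adjusted p = 0.362) or in DESeq2 (-1.03, SE 0.40, adjusted p = 0.690).

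The 3 PLX5622 libraries with the most Tgfb1 counts, PLX5622 25, 26 and 27, also had the highest Nrros levels of their diet, 7.56, 7.67 and 13.3 CPM. They carry the lowest animal numbers of the PLX5622 group. The other 6 held 2.69 to 6.85 CPM of Nrros and 0 to 1 counts of Tgfb1. The Tgfbr1 levels of the 3 libraries, 25.6, 26.1 and 24.0 CPM, lie inside the range of the other 6, 18.8 to 30.5 CPM. This grouping was noticed in the values and was not tested.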
